A study of Homo sapiens with 6 samples.

Results

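The genes described here are 10 enzymes and adaptors of DNA methylation and demethylation, DNMT1, UHRF1, DNMT3A, DNMT3B, TET1, TET2, TET3, TDG, MBD4 and MBD2, out of 62700 genes counted. They were taken by name, through the gene identifiers of the deposited table, and each name matched 1 gene. Poly(A) RNA had been sequenced from human cells labelled MKN-45, an established gastric adenocarcinoma line. The 6 libraries form 2 groups of 3, harvested 48 h after transfection. In the first group the cells were transfected with RNA against NNMT, and in the control group with a negative-control RNA. Both groups went through the same culture and transfection according to the protocol, whereas the series text describes the controls as untouched. The RNA is called siRNA in 1 label and shRNA in others, and no second RNA against NNMT is named, so each group rests on 1 reagent as far as the labels tell. The labels call the replicates independent but do not describe separate cultures, and p-values measure the spread between these libraries. NNMT transfers a methyl group from S-adenosylmethionine, the methyl donor that the DNA methyltransferases also use, to nicotinamide.

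Methyl groups sit mainly on cytosines that precede a guanine, called CpG sites. DNMT3A and DNMT3B place new ones, and DNMT1, guided by UHRF1, copies them onto the new strand after replication. The TET enzymes oxidise methylcytosine, and TDG cuts out the oxidised products so that base excision repair can restore plain cytosine. MBD4 removes thymine from the mismatches that deaminated methylcytosine leaves, and MBD2 binds methylated DNA and recruits a repressive complex. In proliferating carcinoma cells, DNMT1 and UHRF1 are known to be made chiefly in cells that replicate DNA.

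Library totals ranged from 40558680 to 56067484 reads. NNMT had 2, 8 and 14 reads in replicates 1, 2 and 3 labelled NNMT knockdown, against 0, 8 and 12 in controls. It averaged 0.183 CPM (counts scaled by the library total) in the labelled knockdown and 0.127 CPM in control libraries. The targeted RNA was thus nearly absent from the controls as well, and a lowering of it was not shown. The comparison therefore cannot tell what a loss of NNMT does, and the groups are called by their labels throughout. All 5 epithelial markers examined were present, with KRT19 at 1050 ± 189 CPM in the labelled knockdown and 936 ± 8.64 CPM in control libraries (SD, n = 3 each). The epithelial list summed to 1262 to 1596 CPM in the labelled knockdown and 1297 to 1318 CPM in control libraries. Of its 5 genes, 4 had a log2 fold change below 0, and KRT19 was the one above 0. EPCAM averaged 21.1 CPM in the labelled knockdown and 31.6 CPM in control, and CDH1 31.7 and 39.9 CPM. KRT18 averaged 113 and 122 CPM, without overlap, and KRT8 180 CPM in each group. None of the 5 had an unadjusted p under 0.05 in edgeR. Of 11 gastric and intestinal lineage markers, 7 lay below 1 CPM in every library, CDX2 and GKN1 had 0 reads, and the list summed to 42.7 to 103 CPM in the labelled knockdown and 37.2 to 102 CPM in control libraries. MUC6 was its highest gene, at 34 to 64.9 CPM in the labelled knockdown and 25.7 to 84.1 CPM in control libraries. MUC5AC measured 42.5 CPM in replicate 2 labelled knockdown and 3.67 to 8.97 CPM in the other libraries. TFF1 lay at 1.63 to 8.36 CPM and TFF2 at 0.553 to 3.5 CPM. Of 7 immune, endothelial and stromal markers, 5 lay below 1 CPM throughout and CD3E had 0 reads, while the endothelial and platelet adhesion gene PECAM1 averaged 23 CPM in the labelled knockdown and 23.3 CPM in control libraries. That list summed to 19.1 to 28.1 CPM in the labelled knockdown and 22.8 to 29.6 CPM in control libraries. The part of these markers in the values below was not tested.

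All 10 genes were expressed in every library, and none differed between the groups beyond the spread of replicates. In edgeR's quasi-likelihood test over 20250 genes, 0 of the 10 passed the threshold of 0.05 on the Benjamini-Hochberg adjusted p, which was 0.999 for each. The same held for all genes tested, of which 0% were called. An unadjusted p under 0.05 was found for 0 of the 10 and for 817 of all genes (4.03%). DESeq2 called 8 genes and limma-voom 0, and none of the 10 was among them. The fitted log2 fold change lay above 0 for 6 members and below 0 for 4, with a median of 0.0308, against 0.00333 over all genes tested. The 95% interval reached no further than 1.5-fold in either direction for 9 of the 10, and no further than 2-fold for all 10. Fewer cells of a type and less RNA per cell cannot be told apart in such bulk samples. Of the 11518 genes with a mean of at least 5 CPM, 88.5% had an interval within 1.5-fold and 97.4% within 2-fold. The groups overlapped for 9 members. TDG was the exception, and groups did not overlap for 9.17% of all genes tested.

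**Figure D1:**
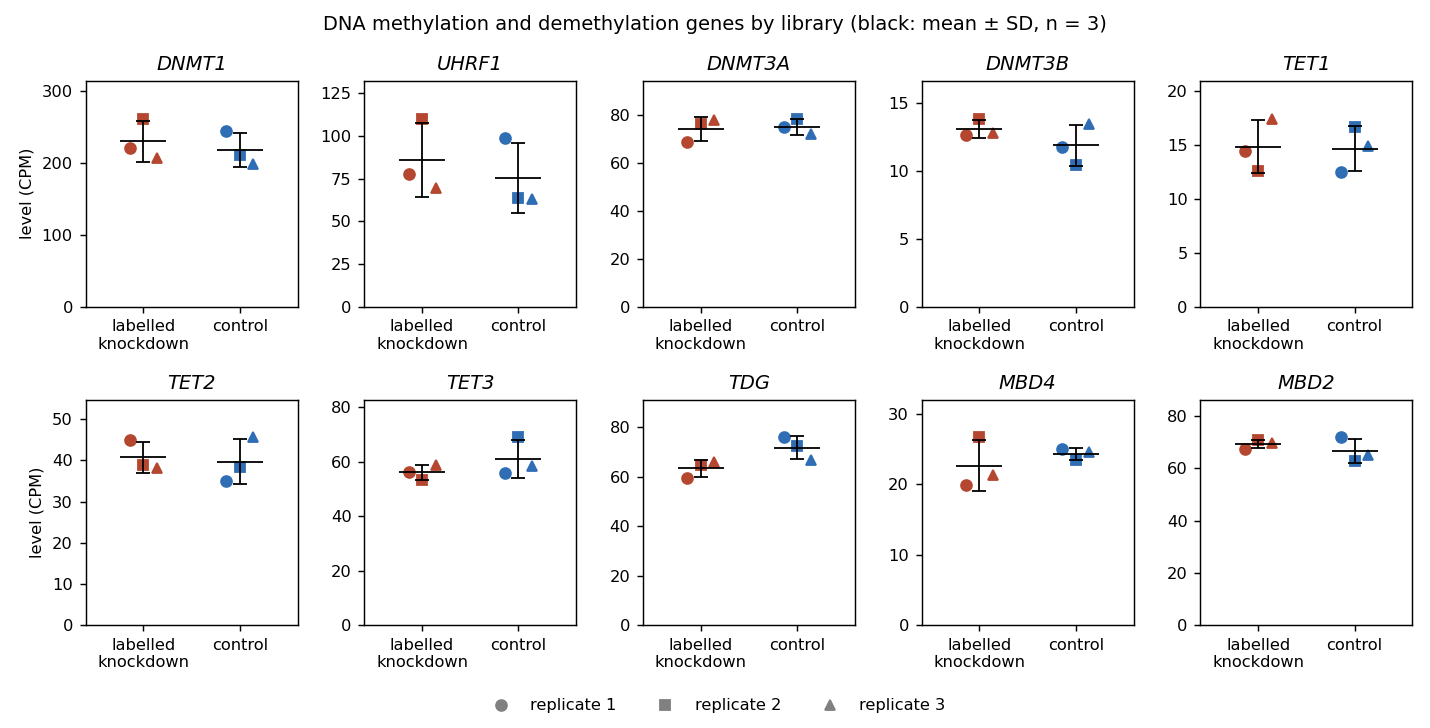
Level of each gene (CPM, linear axis from 0) in the 3 libraries labelled NNMT knockdown (left, red) and the 3 control libraries (right, blue), with the mean ± SD in black. The symbols give the replicate number. TDG is the one panel in which all labelled knockdown libraries (59.5 to 66 CPM) lie below all controls (67 to 76.1 CPM).

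**Figure D2:**
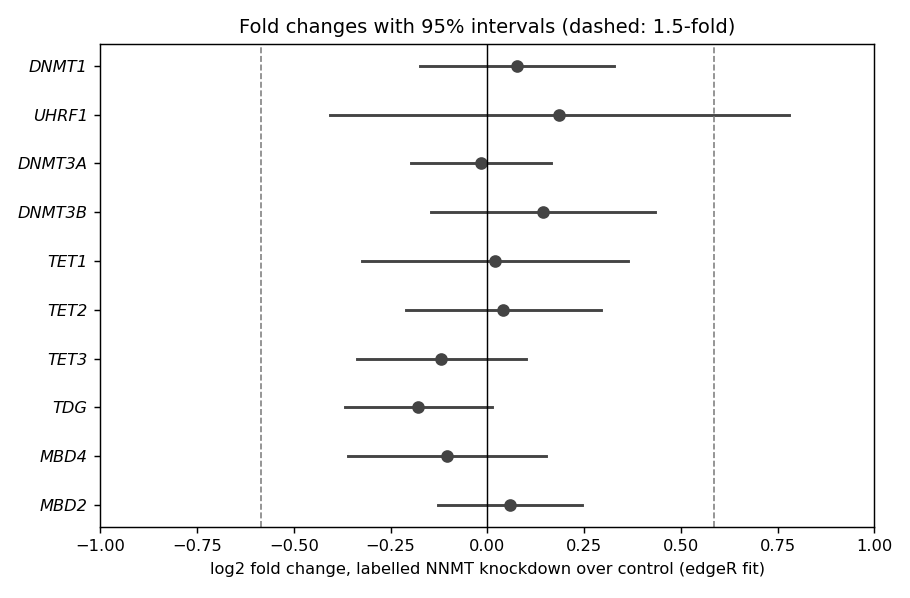
Fitted log2 fold change of each gene, labelled NNMT knockdown over control, with its 95% interval from edgeR, and dashed lines at 1.5-fold in either direction. Every interval spans 0, and that of UHRF1, from -0.41 to 0.78, is the widest and the one that reaches past 1.5-fold.

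The maintenance pair varied between libraries in step. Both genes are on chromosome 19: in hg38, UHRF1 (gene ENSG00000276043.5) lies at chr19:4903080-4962154 on the plus strand, and DNMT1 (gene ENSG00000130816.17) lies at chr19:10133342-10231286 on the minus strand. UHRF1 encodes the adaptor that reads hemimethylated DNA and brings DNMT1 to it. It measured 77.7, 110 and 69.3 CPM in replicates 1, 2 and 3 labelled NNMT knockdown, against 98.9, 63.8 and 63 CPM in control replicates 1, 2 and 3. The groups overlapped widely, because the highest values came from replicate 2 labelled knockdown and from control replicate 1. UHRF1 averaged 85.7 ± 21.5 CPM in the labelled knockdown and 75.2 ± 20.5 CPM in control (SD, n = 3 each), a log2 fold change of 0.19 (SE 0.245; 95% interval of the fold 0.754 to 1.72). Its sign rested on 1 library, since leaving out replicate 2 labelled knockdown gave -0.02. Leaving out control replicate 1 kept the sign and gave 0.44.

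DNMT1, the maintenance methyltransferase itself, measured 221, 262 and 207 CPM in replicates 1, 2 and 3 labelled NNMT knockdown, against 245, 211 and 198 CPM in control replicates 1, 2 and 3. As for UHRF1, replicate 2 labelled knockdown and control replicate 1 stood highest. The means were 230 ± 28.5 CPM in the labelled knockdown and 218 ± 24.2 CPM in control, with a log2 fold change of 0.08 (SE 0.113; 95% interval of the fold 0.886 to 1.25). Leaving out the same libraries gave -0.02 and 0.18 in that order.

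A list of 14 genes of S phase and proliferation followed the same order of libraries. Their summed level was 1179, 1443 and 1018 CPM in replicates 1, 2 and 3 labelled NNMT knockdown, against 1299, 1029 and 1017 CPM in control replicates 1, 2 and 3. Replicate 2 labelled knockdown was highest and control replicate 1 second for 13 of the 14 genes, whereas 8.41% of all genes tested had that order. Of all genes tested, 23.8% were highest in replicate 2 labelled knockdown. MCM4, a subunit of the replicative helicase, measured 110, 137 and 96.7 CPM in the labelled knockdown and 128, 93.8 and 92.2 CPM in control libraries. It was the gene with the highest r to UHRF1, so it shows the pattern at its closest. MCM3, also on the list, was flatter, at 132, 140 and 118 CPM in the labelled knockdown and 135, 124 and 125 CPM in control libraries. None of the 14 passed between the groups in edgeR and none had an unadjusted p under 0.05. All 14 had a log2 fold change above 0, with a median of 0.13. In the summed level, replicates 1 and 3 labelled knockdown lay within the range of the controls, and replicate 2 alone lay above it. The genes of the list varied together, so their signs are not separate observations. The proliferation antigen gene MKI67 averaged 184 ± 41.5 CPM in the labelled knockdown and 157 ± 23.5 CPM in control (SD, n = 3 each). The nucleotide synthesis gene TYMS averaged 39.4 ± 5.21 CPM in the labelled knockdown and 34.9 ± 4.28 CPM in control.

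Across the 6 libraries, log2 CPM of UHRF1 and DNMT1 correlated with a Pearson r of 0.98 (exact permutation p = 0.00417, two-sided) and a Spearman rho of 0.943 (exact permutation p = 0.0167). UHRF1 and the summed list correlated with r = 0.981 (exact permutation p = 0.00417) and rho = 0.943 (exact permutation p = 0.0167). For DNMT1 and the summed list r was 0.98 (exact permutation p = 0.00139, the smallest that 720 pairings allow) and rho was 1 (exact permutation p = 0.00278). These 3 relations were chosen after the values per library had been seen, so their p-values are too small as evidence. After Benjamini-Hochberg adjustment over the 3, the permutation p was 0.00417 for each r, and for rho it was 0.0167, 0.0167 and 0.00833 in the same order. This adjustment does not cover how the relations were chosen, and UHRF1 with DNMT1 had the highest r of all pairs of members. Without the libraries farthest from the median, replicate 2 labelled knockdown and control replicate 1, r was 0.82, 0.885 and 0.853 over the 4 left. The values of a library share its total, which enters every CPM. Nor was the pattern particular to the pair. Among 11517 other genes with a mean of at least 5 CPM, 609 had an r above 0.9 with UHRF1 and 605 with DNMT1.

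**Figure D3:**
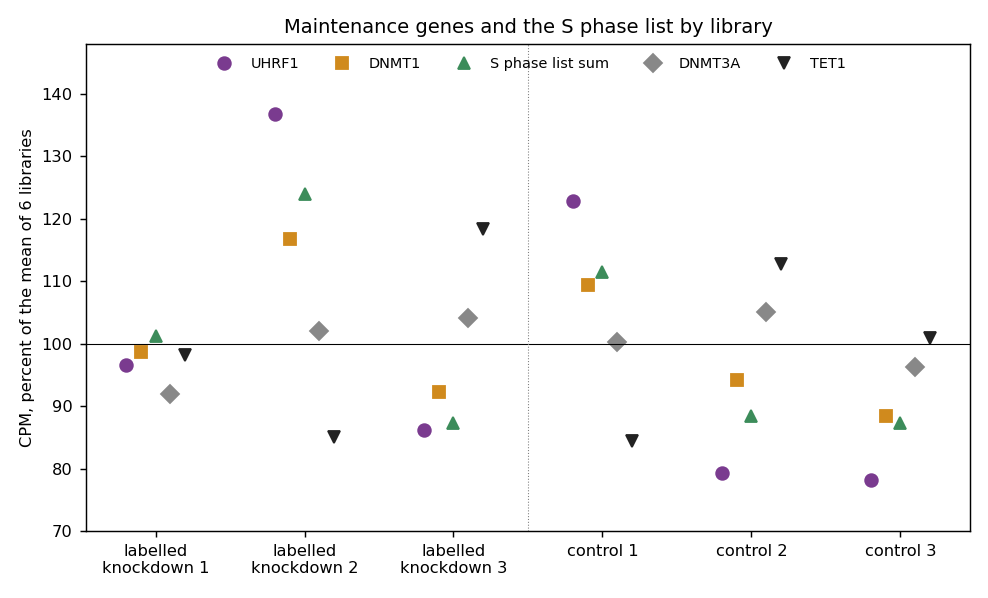
CPM in each library as a percent of the mean of the 6 libraries (vertical axis, from 70), for UHRF1, DNMT1, the summed list of 14 S phase and proliferation genes, DNMT3A and TET1. UHRF1, DNMT1 and the list are highest in replicate 2 labelled NNMT knockdown (137%, 117% and 124%) and second in control 1 (123%, 109% and 112%), where TET1 is lowest (85.2% and 84.5%) and DNMT3A stays within 92% to 105% in all 6.

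Other partners of maintenance are known to act beside this pair. HELLS, the chromatin remodeller that opens nucleosomes to methylation, measured 36.9, 37.1 and 26.8 CPM in the labelled knockdown and 38.7, 25.9 and 24.8 CPM in control libraries. Its partner CDCA7 measured 21.8, 28.1 and 18.4 CPM in the labelled knockdown and 23.7, 16.7 and 16.6 CPM in control libraries. For both genes control replicate 1 stood above the other controls. UHRF2, the paralog of UHRF1, was flatter, at 134, 130 and 129 CPM in the labelled knockdown and 124, 126 and 135 CPM in control libraries.

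The promoters of the maintenance pair are shown because their RNA levels moved together between libraries. RefSeq windows of GRCh38.p14, which hold 250 bases before and 50 after a transcript start, were found for all 10 members, 21 windows in all. They were searched on both strands for 4 octamers of the E2F type, TTTCCCGC, TTTCGCGC, TTTGCCGC and TTTGGCGC; E2F factors are known regulators of S phase genes. A match was found in 3 of the 21 windows, belonging to DNMT1 and UHRF1, and in 3.31% of 35114 windows of all genes. Counted by gene, 2 of the 10 members had a match, against 3.99% of 27303 genes. Each octamer holds a CpG, and the 3 matching windows held 30, 36 and 40 CpG sites, against a median of 14 over all windows. The share over all windows is therefore not a like comparison. Nor is the share by gene, since the 10 members had 21 windows and the 27303 genes 35114, and more windows per gene give more places to match. The motif was chosen after the levels had been seen, and a match of letters is no evidence of binding. The RefSeq windows do not cover every start in the deposited annotation: those with a match lie inside the gene as deposited, 36333 bases from its 5′ end for DNMT1 and 6421 and 7064 bases for UHRF1, and the one window of DNMT3B lies 17467 bases inside, so the windows at these 5′ ends were not searched. The stretches below carry the match in capitals, on chromosome 19. The DNMT1 stretch (minus strand, chr19:10194934-10195073) and the first UHRF1 stretch (plus strand, chr19:4909381-4909520) run from 120 bases before to 20 after the start. The second UHRF1 stretch (plus strand, chr19:4909944-4910083) runs from 200 to 61 bases before another start.
DNMT1: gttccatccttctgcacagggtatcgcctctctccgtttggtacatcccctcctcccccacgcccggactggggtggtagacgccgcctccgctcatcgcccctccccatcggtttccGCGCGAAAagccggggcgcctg
UHRF1, first start: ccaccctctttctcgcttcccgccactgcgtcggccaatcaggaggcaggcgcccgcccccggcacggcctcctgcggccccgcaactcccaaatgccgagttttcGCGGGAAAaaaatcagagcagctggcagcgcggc
UHRF1, second start: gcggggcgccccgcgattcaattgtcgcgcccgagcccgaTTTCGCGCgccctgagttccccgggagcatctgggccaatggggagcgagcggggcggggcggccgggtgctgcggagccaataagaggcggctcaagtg

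The de novo enzymes differed more from each other per length than between groups. In hg38, DNMT3A (gene ENSG00000119772.19) lies at chr2:25227855-25342590 on the minus strand, and DNMT3B (gene ENSG00000088305.19) lies at chr20:32762385-32809359 on the plus strand. DNMT3A measured 68.8, 76.4 and 77.9 CPM in replicates 1, 2 and 3 labelled NNMT knockdown, against 75.1, 78.7 and 72.1 CPM in control replicates 1, 2 and 3. The groups overlapped, and the whole range over 6 libraries spanned a ratio of 1.14. The log2 fold change of -0.02 had an SE of 0.0819, and the fold an interval of 0.873 to 1.12.

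DNMT3B, the de novo enzyme that is prominent in early embryos and often raised in carcinoma, measured 12.6, 13.9 and 12.8 CPM in replicates 1, 2 and 3 labelled NNMT knockdown, against 11.7, 10.5 and 13.4 CPM in control replicates 1, 2 and 3. Control replicate 3 lay among the labelled knockdown libraries, and the other controls lay below them. The mean was 13.1 ± 0.663 CPM in the labelled knockdown and 11.9 ± 1.5 CPM in control (SD, n = 3 each), a log2 fold change of 0.14 (SE 0.131; 95% interval of the fold 0.904 to 1.35). DNMT3L, the catalytically inactive cofactor of these enzymes in germ cells, had 0 CPM in the labelled knockdown and at most 0.0178 CPM in control libraries.

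Per length, DNMT3B RNA stood at 0.368, 0.364 and 0.329 of DNMT3A in the labelled knockdown, against 0.313, 0.266 and 0.374 in control libraries. The log2 ratio was -1.5 ± 0.0905 in the labelled knockdown and -1.67 ± 0.245 in control (SD, n = 3 each), with overlapping groups. Of the summed per-length level of the 3 methyltransferases, DNMT1 made up 64.2% to 69.3% over the 6 libraries, DNMT3A 22.5% to 27.2% and DNMT3B 7.26% to 9.74%. UHRF1 stood close to DNMT1 per length, at 1.05, 1.26 and 1 of it in the labelled knockdown and 1.21, 0.904 and 0.949 in control libraries. This closeness rests on the merged exon lengths used, 15379 bases for DNMT1 and 5145 for UHRF1. In CPM, DNMT1 averaged 224 and UHRF1 80.5 over the 6 libraries.

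The TET dioxygenases oxidise methylcytosine stepwise. In hg38, TET1 (gene ENSG00000138336.9) lies at chr10:68560337-68694487 on the plus strand, TET2 (gene ENSG00000168769.14) lies at chr4:105145875-105279816 on the plus strand, and TET3 (gene ENSG00000187605.16) lies at chr2:73984910-74108176 on the plus strand. TET3 measured 56.3, 53.3 and 58.9 CPM in replicates 1, 2 and 3 labelled NNMT knockdown, against 55.8, 69.1 and 58.6 CPM in control replicates 1, 2 and 3. Control replicate 2 stood above the other 5 libraries, which lay close together. The log2 fold change was -0.12 (SE 0.099; 95% interval of the fold 0.791 to 1.07), and -0.02 without control replicate 2.

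TET2, a gene often mutated in myeloid neoplasms, measured 45, 38.9 and 38.2 CPM in replicates 1, 2 and 3 labelled NNMT knockdown, against 35.1, 38.4 and 45.6 CPM in control replicates 1, 2 and 3. Each group held 1 library near 45 CPM, and its log2 fold change was 0.04 (SE 0.114). TET1, known for its role in embryonic stem cells, measured 14.5, 12.6 and 17.4 CPM in the labelled knockdown and 12.5, 16.6 and 14.9 CPM in control libraries. TET1 was lowest in the pair of libraries in which UHRF1 and DNMT1 were highest, and its log2 fold change was 0.02 (SE 0.156).

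Per length, TET3 made up 50.7% to 56.8% of the summed TET level over the 6 libraries, TET2 24.8% to 31.8% and TET1 16.7% to 20.9%. The summed TET level was 0.405, 0.317 and 0.414 of the summed level of the 3 methyltransferases in the labelled knockdown, against 0.335, 0.449 and 0.44 in control libraries. The lowest ratios again came from replicate 2 labelled knockdown and control replicate 1. The log2 ratio was -1.41 ± 0.215 in the labelled knockdown and -1.31 ± 0.236 in control (SD, n = 3 each).

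TDG, the glycosylase that excises oxidised methylcytosine, had the lowest p of the 10. In hg38, TDG (gene ENSG00000139372.15) lies at chr12:103965822-103988874 on the plus strand. It measured 59.5, 64.8 and 66 CPM in replicates 1, 2 and 3 labelled NNMT knockdown, against 76.1, 72.5 and 67 CPM in control replicates 1, 2 and 3. The groups did not overlap, but replicate 3 labelled knockdown and control replicate 3 lay within 1 CPM of each other. The mean was 63.4 ± 3.43 CPM in the labelled knockdown and 71.8 ± 4.59 CPM in control (SD, n = 3 each), a log2 fold change of -0.18 (SE 0.0862; 95% interval of the fold 0.775 to 1.01). edgeR gave it an unadjusted p of 0.0638 and, after adjustment, 0.999, so the difference did not pass. Counting TDG itself, 1066 of the 20250 genes tested had a p that low.

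In hg38, MBD4 (gene ENSG00000129071.10) lies at chr3:129430947-129440179 on the minus strand, and MBD2 (gene ENSG00000134046.12) lies at chr18:54151606-54224669 on the minus strand. MBD4, the glycosylase for thymine opposite guanine, measured 20, 26.7 and 21.3 CPM in replicates 1, 2 and 3 labelled NNMT knockdown, against 25.1, 23.4 and 24.6 CPM in control replicates 1, 2 and 3. The labelled knockdown libraries lay on both sides of the controls, and the log2 fold change was -0.1 (SE 0.116). Reads that fall on exons of more than 1 gene were not counted, and 8.32% of the exon bases of MBD4 overlap IFT122, a ciliary transport gene on the other strand. With those bases left out of its length, its level becomes 7.38 in place of 6.76 RPKM (CPM per kilobase of exon) in the labelled knockdown, and 7.93 in place of 7.27 RPKM in control libraries. Overlaps of TDG, TET3 and DNMT1 with other genes covered 0.54% to 3.44% of their exon bases, and the other 6 members had none. The counting command sets no strand, so reads from antisense RNA cannot be told apart from those of a gene. The antisense gene TET2-AS1 had 13 reads and the TDG pseudogene TDGP1 12 over all 6 libraries.

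MBD2, the reader that links methylated DNA to the NuRD repressor complex, was the least variable member with DNMT3A. It measured 67.6, 70.7 and 69.8 CPM in replicates 1, 2 and 3 labelled NNMT knockdown, against 72, 63 and 65.2 CPM in control replicates 1, 2 and 3. The labelled knockdown libraries lay inside the range of the controls. Its log2 fold change was 0.06 (SE 0.084; 95% interval of the fold 0.916 to 1.18).

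Levels can be compared between genes only per length, for which RPKM was computed over the merged exons of each gene. Over the 6 libraries UHRF1 was highest, at a mean of 15.6 RPKM (12.2 to 21.4), followed by DNMT1 at 14.6 (12.9 to 17), TDG at 13.8 (12.2 to 15.6) and MBD2 at 12 (11.1 to 12.7). The ranges of neighbours overlapped among these 4, and the order of the first 3 was not fixed. In control libraries alone TDG averaged 14.7 RPKM, UHRF1 14.6 and DNMT1 14.2, and UHRF1 lay below both others in control replicates 2 and 3. MBD4 followed at 7.02 RPKM (5.96 to 7.97), below MBD2 and above DNMT3A in every library. DNMT3A at 5.43 RPKM and TET3 at 4.53 overlapped. TET2 came next at 2.44 RPKM (2.13 to 2.77), apart from TET3 above it and from DNMT3B below it, and DNMT3B at 1.82 and TET1 at 1.53 overlapped. The span from UHRF1 to TET1 was 10.2-fold, and in percentiles of all genes tested it ran from 86.2 to 42.4. Merged exons include every annotated isoform, so genes with long rare isoforms read too low on this scale. The lengths ran from 3353 bases for MBD4 to 16474 for TET2, with 15379 for DNMT1. The order here and the per-length ratios and shares above depend on them.

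**Figure D4:**
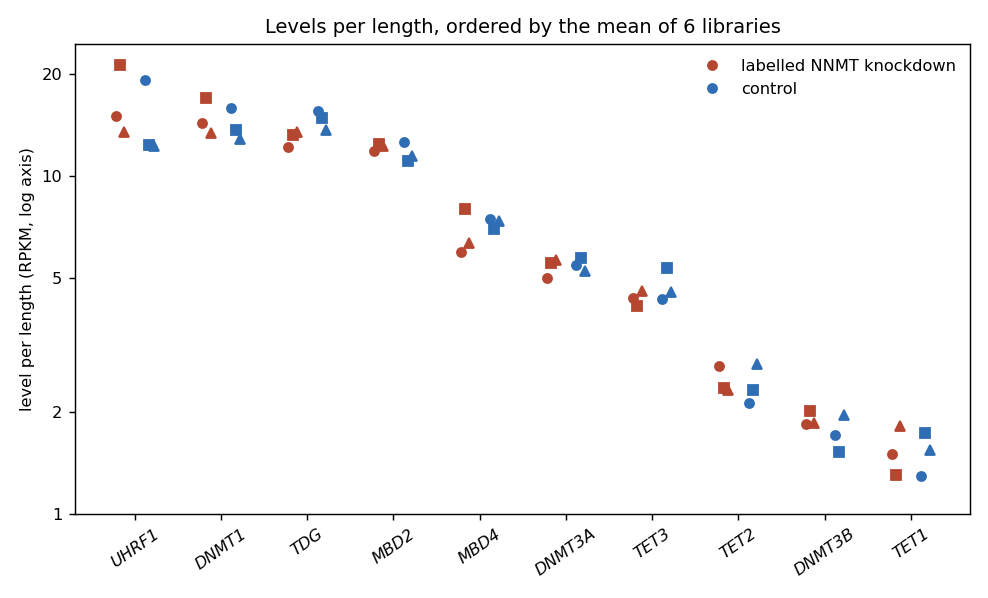
RPKM of each gene (log axis) in the 6 libraries, ordered by the mean, with libraries labelled NNMT knockdown in red left of control libraries in blue and the replicate shown by circle, square and triangle for 1, 2 and 3. UHRF1, DNMT1, TDG and MBD2 lie between 11.1 and 21.4 RPKM, and DNMT3B and TET1 between 1.3 and 2.01.

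Among 16 partners and readers of DNA methylation, 14 were tested and 0 passed in either direction, with a median log2 fold change of 0.0252. The lowest p belonged to MBD3, a subunit of the NuRD complex, at 50.4 ± 4.43 CPM in the labelled knockdown and 44 ± 5.5 CPM in control (SD, n = 3 each). CDCA7, MBD1 and QSER1 followed. MBD1, another methyl-CpG binding gene, measured 79.8 ± 2.5 CPM in the labelled knockdown and 85.6 ± 3.21 CPM in control, without overlap. QSER1, which protects regulatory regions from methylation, measured 77.9 ± 10.9 CPM in the labelled knockdown and 71.6 ± 6.3 CPM in control. In the S phase list PCNA, the sliding clamp that also recruits DNMT1, measured 85.6 ± 16.1 CPM in the labelled knockdown and 77.4 ± 9.45 CPM in control, and the helicase gene MCM2 34.9 ± 6.49 and 31.4 ± 5.27 CPM.

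Among 19 genes of demethylation and base excision repair, 16 were tested and 0 passed in either direction, with a median log2 fold change of 0.04. NEIL1, a glycosylase for oxidised bases, had the lowest p, at 12.8 ± 1.29 CPM in the labelled knockdown and 15.4 ± 0.539 CPM in control (SD, n = 3 each), without overlap. The ligase gene LIG3 measured 19 ± 3.03 CPM in the labelled knockdown and 21.8 ± 0.95 CPM in control, also without overlap. The abasic site endonuclease gene APEX1 measured 137 ± 7.19 CPM in the labelled knockdown and 119 ± 16.6 CPM in control. IDH1, whose product supplies the 2-oxoglutarate that TET enzymes need, measured 91.7 ± 12.3 CPM in the labelled knockdown and 82.2 ± 12.1 CPM in control.

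Genes known to depend on DNA methylation were also read. All 11 germline genes on a list of genes methylated in most somatic cells lay below 1 CPM in every library, and TDRD1 and ASZ1 had 0 reads. The list summed to 0.598 to 0.69 CPM in the labelled knockdown and 0.457 to 0.643 CPM in control libraries. DDX4, a germ cell helicase gene, was the one member tested, at 0.347 ± 0.277 CPM in the labelled knockdown and 0.188 ± 0.0975 CPM in control (SD, n = 3 each).

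Of 19 imprinted genes, whose active copy is set by methylation inherited from 1 parent, 14 were tested and 0 passed, with 7 above and 7 below 0 and a median log2 fold change of -0.02. PEG10, a retrotransposon-derived gene expressed from the paternal copy, measured 410 ± 25.6 CPM in the labelled knockdown and 359 ± 21.4 CPM in control (SD, n = 3 each), without overlap, while edgeR's adjusted p was 0.999. ZDBF2 measured 9.26 ± 1.36 CPM in the labelled knockdown and 11.4 ± 1.07 CPM in control, also without overlap. DIRAS3 measured 0.526 ± 0.216 CPM in the labelled knockdown and 0.3 ± 0.0953 CPM in control, and GRB10 125 ± 18.1 and 143 ± 21.6 CPM. The imprinted genes H19, DLK1 and MAGEL2 had 2 reads each over all 6 libraries.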

How the data were processed

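The authors deposited raw read counts per gene, made with featureCounts 2.0.6 on hg38 alignments and GENCODE 44, per the file headers. No source used here names the aligner. The command (-p -B -C) names neither pair counting nor strand, so mates were probably counted singly: 73.4% to 76.7% of counts from 2 to 10 were even. All 62700 identifiers matched a symbol.

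Genes passing filterByExpr (20250) were tested with edgeR 4.0.16 in R 4.3.3 (TMM, robust quasi-likelihood, group only, Benjamini-Hochberg over all genes, threshold 0.05). CPM and RPKM used library totals and deposited lengths. Alternatives were DESeq2 1.42.0, limma-voom 3.58.1, other scalings and filters, non-robust dispersion, halved counts, a replicate block and each library left out. The test was checked on simulated data. Named genes are NNMT, the members and, per list, any passing gene and up to 4 with the lowest p. Other genes were named for their role or level after values were seen, such as MCM4, MCM3, HELLS, UHRF2 and those at 0 reads. Members and lists were chosen with earlier results of these data known. Labels call replicates independent but name no shared culture or day.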

Additional observations from a re-analysis of the deposited data

How the results depend on the processing

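None of the 10 members passed under any of the 15 alternatives. Over all genes 72 passed without a filter on low counts and 8 in DESeq2, against 0 in the main test, and leaving out 1 library gave 0 to 1 (1 without control replicate 3); the cause was not tested. With the replicate number as a block 0 genes and 0 members passed. Same-numbered libraries' deviations from their group means correlated at 0.0545, -0.078 and 0.189 for replicates 1, 2 and 3. Replicates 1 and 3 labelled knockdown correlated best with the control of their own number, and replicate 2 with control replicate 1 (0.139). These values do not settle whether the numbers pair the libraries. Directions held for all members under the 9 alternatives that kept all libraries. Leaving out 1 library turned the log2 fold change of 5 members in at least 1 case, with ranges of -0.0159 to 0.179 for DNMT1, -0.0223 to 0.445 for UHRF1, -0.0569 to 0.0224 for DNMT3A, -0.113 to 0.135 for TET1 and -0.0532 to 0.141 for TET2. For DNMT3B, TET3, TDG, MBD4 and MBD2 the direction held, but the size moved by over 1.5 times for DNMT3B (0.0586 without control replicate 2, 0.23 without control replicate 3), TET3 (-0.0229 without control replicate 2, -0.0737 without replicate 2 labelled knockdown), MBD4 (-0.0348 and -0.0622 without replicates 1 and 3 labelled knockdown, -0.228 without replicate 2) and MBD2 (0.126, 0.0177 and 0.031 without control replicates 1, 2 and 3). TDG ranged from -0.237 to -0.125. Counting mates singly makes counting error larger than read numbers imply. The members' lowest count was 488 reads, and the part of counting error in the spread between replicates was not tested.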

Other observations

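Over the 6 libraries, likeness to a member was measured as the Pearson r of log2(CPM + 0.5) among genes with a mean of at least 5 CPM, as a description over points that share their library totals. The genes most like UHRF1 were the helicase subunit MCM4 (r = 0.995), the mitotic kinesin KIF4A (0.995) and PAF1 (0.993), and 609 of 11517 genes exceeded 0.9. For DNMT1 they were UBTF (0.996), HNRNPA3 (0.993) and RPP40 (0.993), with 605 above 0.9. For TDG they were KLHDC8B (0.993), KIAA0040 (0.991) and USP19 (0.988), with 157 above 0.9. For the other 7 members 60 to 218 genes exceeded 0.9, and the highest r was 0.989 to 0.997.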
